A study of Mus musculus with 20 samples.

Results

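The genes described here are 41 imprinted genes, chosen by name from a table of 19269 gene symbols that was read across 20 RNA libraries of mouse preoptic area. All 41 were rows of the table. They lie in 18 imprinted domains, and 6 are noncoding RNAs (Meg3, Rian, Mirg, Peg13, Kcnq1ot1 and H19) while 35 code for proteins. From textbook knowledge 15 are transcribed mainly from the maternal allele, 21 mainly from the paternal allele, and 5 (Igf2r, Grb10, Ddc, Gnas and Inpp5f) differ by isoform or tissue and are called mixed here. The counts carry no allele information, so parental origin was a label and was not measured.

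Imprinted genes are transcribed from only 1 parental allele, which is set by DNA methylation laid down in the egg or sperm and kept after fertilisation by factors such as ZFP57, TRIM28 and DNMT1. Most sit in clusters in which a control region governs several neighbours, often through a long noncoding RNA. Many paternally expressed members (Igf2, Peg3, Dlk1, Mest) act in growth, and several (Peg3, Magel2, Ndn, Nnat) are known for high expression in the hypothalamus and for roles in feeding, maternal care and sexual maturation. Mkrn3, a paternally expressed RING-finger ubiquitin ligase, is known as a brake on puberty whose loss causes central precocious puberty in humans.

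The libraries were made from preoptic punches of female mice at day 21 (young) or at 70 to 150 days (adult, all in diestrus), with 3 to 4 mice pooled per sample. A pull-down against GFP (immunoprecipitate, IP) was separated from the depleted supernatant. In the positive design the GnRH CRE driver and the Floxed L10a-GFP allele put a GFP-tagged ribosomal protein into neurons that make gonadotropin-releasing hormone (GnRH). The untagged controls were 3 young and 2 adult pools. Wild-type mice made up young pools 1 and 2, mice with Floxed L10a-GFP but no Cre made up young pool 3, and mice with GnRH CRE but no floxed allele made up both adult pools. Age and genotype thus changed together among untagged pools. Each gave an IP and a supernatant, as did 1 adult GFP-positive pool with both alleles. A further 4 GFP-positive pools of an earlier collection, young pools 1 and 2 and adult pools 3 and 4, gave supernatants only, and the same RNA was read in sequencing set 1 and again in set 2 with the newer libraries. They are called prior pools below. The series concerns prenatal androgen exposure, and the labels used here do not say whether any pool was exposed.

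Libraries held 27.7 to 50.5 M counts. Levels are given as CPM (counts scaled to the library total and by trimmed mean of M values over the 20 libraries), and 3 counts, taken as the floor, equalled 0.0588 to 0.109 CPM. The GFP-positive IP held 1460 CPM of Gnrh1, its supernatant 27.3 CPM and the untagged IPs 7.84 to 33.5 CPM. Preoptic neuron markers were present throughout, with Gad1 (GABA synthesis) at 512 to 988 CPM, although Hmx2, Hmx3 and Moxd1 were low and uneven in the IPs, and Moxd1 had no read in the IP of young untagged pool 1. Fibroblast and meningeal genes varied widely between pools, and Prl and Gh, which mark the pituitary, exceeded 0.5 CPM only in adult prior pool 4. The list of 8 anterior pituitary genes that holds them was not confined to that pool. Its summed level ran from 4.08 to 13.4 CPM over the 20 libraries, highest in the supernatant of young untagged pool 1. Adult prior pool 4 summed to 6.94 CPM in set 2.

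Several members carry sequence that bears on how they are read. The start sites of Peg3 (chr7:6703892-6730431, minus strand, GRCm38) and Usp29 (chr7:6730578-6967219, plus strand) lie head to head, and their promoter windows, from 250 bases before to 50 bases after the RefSeq start, overlap. The Peg3 window is chr7:6730370-6730669 on the minus strand of GRCm38.p6, shown 5′ to 3′ with the 263 bases shared with the Usp29 window in capitals.

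Peg3 promoter: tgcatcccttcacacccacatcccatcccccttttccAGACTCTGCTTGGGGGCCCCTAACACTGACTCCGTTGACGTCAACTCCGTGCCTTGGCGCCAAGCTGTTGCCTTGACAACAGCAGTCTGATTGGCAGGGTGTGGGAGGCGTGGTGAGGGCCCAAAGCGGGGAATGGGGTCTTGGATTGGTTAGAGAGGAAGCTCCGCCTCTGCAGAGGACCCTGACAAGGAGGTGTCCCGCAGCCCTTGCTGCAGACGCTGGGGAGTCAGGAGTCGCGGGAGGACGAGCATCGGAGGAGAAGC

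Nap1l5 (chr6:58905233-58907076, minus strand) is a single-exon gene that lies inside Herc3 on the opposite strand. It had the highest level per length of all members by the transcript lengths used here. Its promoter window is chr6:58907077-58907376 on the minus strand of GRCm38.p6. The capitals mark TGCCGC, the hexamer that ZFP57 is known to bind when methylated.

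Nap1l5 promoter: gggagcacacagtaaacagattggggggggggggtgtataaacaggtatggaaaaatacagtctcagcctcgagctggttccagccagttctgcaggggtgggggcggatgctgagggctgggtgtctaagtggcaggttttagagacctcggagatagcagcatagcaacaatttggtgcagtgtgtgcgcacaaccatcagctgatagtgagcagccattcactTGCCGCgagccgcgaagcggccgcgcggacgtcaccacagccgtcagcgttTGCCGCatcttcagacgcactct

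Promoter windows from RefSeq were matched for 34 of the 41 members. TGCCGC, or its reverse complement GCGGCA, occurred in 14 of their 51 windows (27.5%) and in 11.6% of 32851 promoter windows of the same length. Member windows were also richer in CG dinucleotides, with a median of 14 against 7. A match describes the letters and is not a measured binding site.

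Of the members, 8 host annotated miRNAs, with 47 mature products in all and 26 of them in Mirg. The products of Mest and H19 and 2 of the 6 products of Rian are shown as examples, since Mest and Rian were called in the IP comparison and H19 with age. Capitals mark the seed, bases 2 to 8. The libraries were polyA RNA and measured the host transcripts, not the mature miRNAs.

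miR-335-5p (Mest): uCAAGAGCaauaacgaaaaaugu
miR-335-3p (Mest): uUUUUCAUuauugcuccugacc
miR-675-5p (H19): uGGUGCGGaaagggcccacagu
miR-675-3p (H19): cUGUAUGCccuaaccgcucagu
miR-370-5p (Rian): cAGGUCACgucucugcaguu
miR-370-3p (Rian): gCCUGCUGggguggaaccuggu

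No seed was shared among these 6 sequences. Over all 47 products there were 46 different seeds.

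Levels differed widely between the members. Lengths were those of the longest annotated transcript, protein-coding where there was one. Over the 10 supernatant pools of set 2, Nap1l5 (a nucleosome assembly protein) led with 1890 ± 342 CPM per kb (SD, n = 10 pools). Nnat (neuronatin, a small proteolipid of the endoplasmic reticulum) followed at 1130 ± 167 CPM per kb. Gnas (the stimulatory G protein alpha subunit and its imprinted variants) stood at 897 ± 70.1 CPM per kb. The Gnas length was that of a 2-exon transcript of 3947 bases, out of 11186 annotated exonic bases, so its rank depends on that choice. Before division by length the means were 3540 CPM for Gnas and 3480 CPM for Nap1l5. The ranges of Nnat (889 to 1460 CPM per kb) and Gnas (797 to 1020) overlapped, and the highest Nnat pool stayed below the lowest Nap1l5 pool (1530). Ndn (necdin, a MAGE-family protein) followed at 430 ± 167, Impact (a brake on activation of the kinase GCN2) at 253 ± 39.3 and Blcap (a small membrane protein) at 144 ± 18.2 CPM per kb. The ranges of Ndn (226 to 687) and Impact (194 to 318) overlapped. All further members had means of at most 43.2 CPM per kb, the level of Peg13.

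Among the noncoding members the order per kb was Peg13 (43.2 ± 15.1 CPM per kb), Meg3 (23.9 ± 16.1), Rian (12.8 ± 2.03), Kcnq1ot1 (0.333 ± 0.159), Mirg (0.313 ± 0.0658) and H19 (0.139 ± 0.189; SD, n = 10 pools in each). Neighbours in this order overlapped except Rian and Kcnq1ot1. Kcnq1ot1 is annotated as a single exon of 93092 bases, so its level per kb depends on that length. At the low end, Phlda2 (an inhibitor of placental growth) reached at most 0.243 CPM in any library, and Snurf at most 0.0364 CPM. The 216 annotated exonic bases of Snurf all lie within exons of Snrpn as well, so that the Snurf and Snrpn rows cannot be separated by counting. Both Phlda2 and Snurf were too low to be tested.

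The comparison of IP with supernatant in untagged pools asks which imprinted transcripts a pull-down holds when no tagged ribosome is present. The zinc-finger genes Peg3 and Zim1, the receptor Igf2r, the noncoding Peg13 and the hydrolase-family gene Mest were 2.82-fold to 7.83-fold higher in the IP. Commd1, Nnat, Nap1l5, Impact and Gnas were lower, by 1.33-fold to 2.11-fold. Of 39 members tested with edgeR, 16 passed an adjusted p of 0.05 (41%), 11 higher and 5 lower. Over all 16361 genes tested 32.1% passed, 15.8% higher and 16.2% lower. The members' median log2 difference was 0.25, against -0.03 over all genes. The ratios of each pool are plotted for all 39 members.

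**Figure D1:**
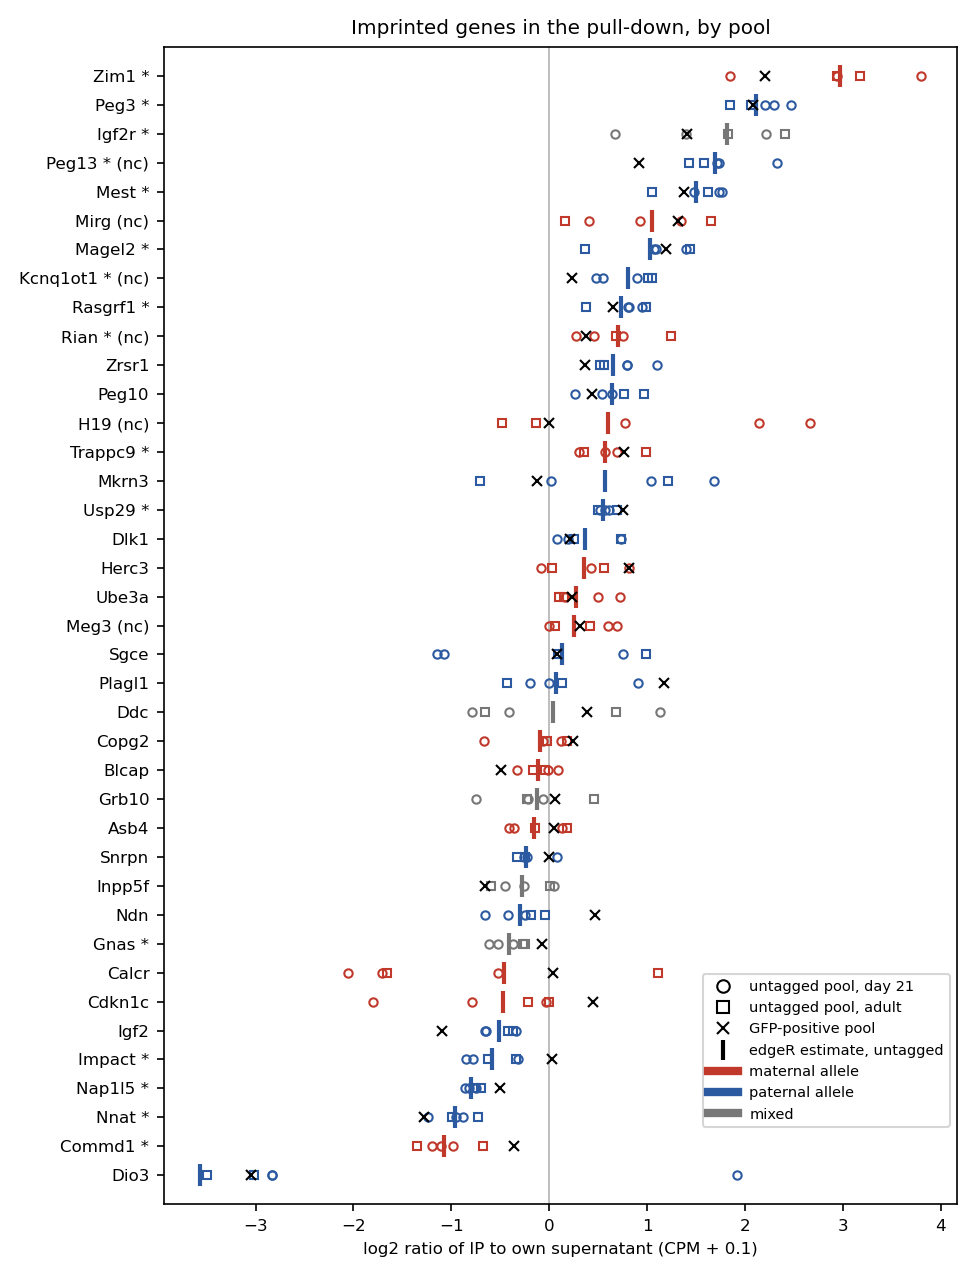
Log2 ratio of IP to own supernatant (CPM + 0.1) for the 39 tested members, sorted by the edgeR estimate. Circles are the 3 young and squares the 2 adult untagged pools, crosses the GFP-positive pool, and vertical bars the edgeR estimate over the untagged pools; red, blue and grey give maternal, paternal and mixed members, asterisks an adjusted p under 0.05 and (nc) noncoding RNAs. Peg3 lies between 1.85 and 2.47 in all 5 untagged pools, while Dio3 is scattered from -3.50 to 1.92.

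In the Peg3 domain, Peg3 (a Krüppel-type zinc-finger protein) read 325, 287 and 217 CPM in the supernatants of young pools 1 to 3 and 287 and 273 CPM in those of adult pools 1 and 2. Its IPs read 1510, 1410 and 1200 CPM in young and 1200 and 984 CPM in adult pools. Every IP was above every supernatant, and the log2 difference was 2.11 (SE 0.13, edgeR adjusted p = 3.11e-06). Zim1, a maternally expressed zinc-finger neighbour, was low in the supernatants (1.71, 1.69, 0.367, 1.24 and 0.971 CPM in the same order) and reached 13.8, 6.35, 6.38, 12 and 8.13 CPM in the IPs. The groups did not overlap, with a log2 difference of 2.97 (SE 0.55, edgeR adjusted p = 0.00214). Usp29, a ubiquitin protease gene that shares the Peg3 promoter region shown above, read 100, 84.0, 69.2, 78.0 and 90.8 CPM in the supernatants and 144, 128, 103, 110 and 146 CPM in the IPs. Its difference of 0.55 (SE 0.14, edgeR adjusted p = 0.0143) was no longer called without the supernatant of adult pool 1 (0.47, adjusted p = 0.0923) or the IP of adult pool 2 (0.45, adjusted p = 0.0562). Part of its annotated exons (14.8% of exonic bases) is shared with other genes, mostly with Zim3 on the opposite strand.

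Of the insulin-like growth factor axis, only the receptor was higher by this test. Igf2r, which clears IGF2 from the cell surface, rose from 4.15, 4.42, 4.92, 3.62 and 4.00 CPM in the supernatants to 19.7, 11.8, 7.90, 19.7 and 14.5 CPM in the IPs, in 5 of 5 pools (log2 difference 1.82, SE 0.32, edgeR adjusted p = 0.00146). Igf2, the growth factor itself, had a log2 difference of -0.51 (SE 0.46) that was not called (edgeR adjusted p = 0.463). Fitted with the pool as a block, Igf2 was called lower (-0.50, SE 0.09, edgeR adjusted p = 0.00394), and each IP was below its own supernatant while supernatants ranged from 78.4 to 332 CPM. Igf2 shares 62.8% of its exonic bases with Gm49394, a readthrough model that is not in the table. Grb10, an adaptor that damps insulin signalling, showed -0.12 (SE 0.15, edgeR adjusted p = 0.613).

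Mest, also called Peg1, read 49.8, 47.7, 29.5, 32.8 and 40.1 CPM in the supernatants and 170, 133, 98.8, 68.0 and 124 CPM in the IPs, again without overlap (log2 difference 1.5, SE 0.23, edgeR adjusted p = 0.000658). Its neighbour Copg2, a coat protein subunit whose exons overlap 23.1% of those of Mest from the opposite strand, showed -0.09 (SE 0.16, edgeR adjusted p = 0.727). No strand setting of the counting is given in the sources used here, so reads in that overlap cannot be assigned.

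Among the noncoding members 3 of 6 were called, all higher. Peg13, transcribed from within an intron of Trappc9, read 157, 138, 136, 181 and 155 CPM in the supernatants and 526, 696, 447, 544 and 417 CPM in the IPs (log2 difference 1.70, SE 0.14, edgeR adjusted p = 2.27e-05). Rian, a host of small nucleolar RNAs, read 105, 119, 113, 75.0 and 99.1 CPM against 145, 144, 190, 178 and 159 CPM (0.70, SE 0.12, edgeR adjusted p = 0.00154). Kcnq1ot1, the antisense silencer of its domain, read 30.6, 25, 21.0, 20.9 and 24.7 CPM against 42.9, 46.7, 30.8, 42.3 and 51.3 CPM (0.81, SE 0.18, edgeR adjusted p = 0.00542). All 3 separated the fractions without overlap. With each library's trend with transcript length taken out (length offset), the noncoding calls were 1 higher (Peg13) and 2 lower (Kcnq1ot1 and Meg3), and Rian stood at -0.04.

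The other noncoding members were not called. Meg3, a nuclear RNA of the same domain as Rian, read 321, 206, 144, 132 and 247 CPM in the supernatants and 322, 311, 232, 176 and 257 CPM in the IPs (0.25, SE 0.24, edgeR adjusted p = 0.493). Mirg, the miRNA host at the far end of that domain, read 1.60, 1.31, 1.5, 1.06 and 1.18 CPM against 3.14, 3.51, 2.03, 1.20 and 3.94 CPM, and H19 read 0.255, 0.804, 1.19, 0.0394 and 0.121 CPM against 2.16, 3.87, 2.11, 0 and 0.103 CPM. For H19 every young IP was above every young supernatant, and the adult libraries held 6 counts in the supernatants and 4 in the IPs. The edgeR adjusted p was 0.207 for Mirg and 0.701 for H19.

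In the Prader-Willi and Angelman domain the 2 MAGE-family neighbours differed. Magel2, which regulates ubiquitin ligases in endosomal recycling, read 22.9, 14.2, 10.4, 17.7 and 14.6 CPM in the supernatants and 48.9, 29.8, 27.5, 22.8 and 39.7 CPM in the IPs. The groups overlapped narrowly, since the IP of adult pool 1 (22.8) lay below the supernatant of young pool 1 (22.9), and the log2 difference was 1.03 (SE 0.27, edgeR adjusted p = 0.0159). That call was lost without the supernatant of adult pool 1 (1.07, adjusted p = 0.0576) or of adult pool 2 (0.94, adjusted p = 0.084), or without the IP of adult pool 2 (0.81, adjusted p = 0.0633). Ndn showed -0.30 (SE 0.12, edgeR adjusted p = 0.0764), and with the pool as a block it was called lower (-0.31, SE 0.07, edgeR adjusted p = 0.00828). Ube3a, the ubiquitin ligase lost in Angelman syndrome, showed 0.27 (SE 0.12, edgeR adjusted p = 0.11), Mkrn3 showed 0.57 (SE 0.37, 0.279) and Snrpn, a spliceosomal protein gene, -0.24 (SE 0.27, 0.565).

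A pair of further coding members were higher. Rasgrf1, a calcium-responsive Ras exchange factor, read 111, 105, 170, 177 and 110 CPM in the supernatants and 194, 186, 328, 231 and 219 CPM in the IPs (0.73, SE 0.21, edgeR adjusted p = 0.023). Its call was lost without the supernatant of young pool 1 (0.66, adjusted p = 0.0635), young pool 2 (0.65, adjusted p = 0.0638) or adult pool 2 (0.56, adjusted p = 0.123), or without the IP of adult pool 1 (0.70, adjusted p = 0.0669). Trappc9, a subunit of a vesicle-tethering complex, read 72.1, 72.7, 80.7, 83.9 and 63.3 CPM against 107, 90.1, 130, 108 and 126 CPM (0.57, SE 0.13, edgeR adjusted p = 0.00709), and was not called without the supernatant of adult pool 2 (0.46, adjusted p = 0.0594).

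The lower members included the most abundant ones. Nap1l5 read 4560, 4070, 3130, 2910 and 2930 CPM in the supernatants and 2570, 2250, 1860, 1720 and 1810 CPM in the IPs (-0.80, SE 0.12, edgeR adjusted p = 0.000507). Nnat read 1530, 1480, 1080, 1470 and 1770 CPM against 834, 765, 456, 885 and 888 CPM (-0.96, SE 0.17, adjusted p = 0.00166). Gnas read 4040, 3580, 3240, 3230 and 3150 CPM against 2820, 2340, 2520, 2680 and 2650 CPM (-0.41, SE 0.08, adjusted p = 0.00242). For these 3 genes every IP lay below every supernatant.

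Commd1, a regulator of copper handling and NF-kB, fell likewise without overlap, from 93.9, 92.6, 74.5, 75.0 and 70.0 CPM to 40.9, 46.9, 34.5, 29.3 and 43.6 CPM (-1.07, SE 0.15, edgeR adjusted p = 0.000433). Impact read 921, 846, 732, 877 and 857 CPM in the supernatants and 736, 471, 427, 566 and 679 CPM in the IPs, with a narrow overlap at young pools 1 and 3. Its log2 difference was -0.58 (SE 0.15, adjusted p = 0.0124), and without the IP of adult pool 1 it was -0.52 (adjusted p = 0.0565). Counted by separation, 10 members had every IP above every supernatant and 4 had every IP below, out of 39, where all genes showed 12.2% and 11.7%.

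Among members that were not called, Dio3 (the deiodinase that inactivates thyroid hormone) had the most uneven values, with 8.12 CPM in the IP of young pool 1, 0.103 CPM in that of young pool 2 and no read in the other 3 untagged IPs, against 0.611 to 2.07 CPM in the supernatants. Without the IP of young pool 1 it was called lower (edgeR adjusted p = 0.00753). Zrsr1, a splicing factor related gene inside Commd1, had an edgeR adjusted p of 0.485 and passed with the pool as a block (0.69, SE 0.11, adjusted p = 0.00231). Peg10, a retrotransposon-derived gene, lay just above the threshold (0.64, SE 0.23, edgeR adjusted p = 0.0549). It passed with the block (adjusted p = 0.016), by limma voom (adjusted p = 0.0437), by DESeq2 (adjusted p = 0.0332) and without any 1 of 3 libraries, and with the length offset it was 0.05 (adjusted p = 0.917). The remaining uncalled coding members (Dlk1, Sgce, Asb4, Calcr, Cdkn1c, Ddc, Plagl1, Blcap, Herc3, Copg2 and Inpp5f) had estimates from -0.47 to 0.37 on the log2 scale.

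Split by RNA class, noncoding members had a median log2 difference of 0.76 (3 higher and 0 lower of 6 tested) and coding members of 0.04 (8 higher and 5 lower of 33). Maternally expressed members had a median of 0.26 (3 higher and 1 lower of 14), paternally expressed members 0.46 (7 higher and 3 lower of 20) and mixed members -0.12 (1 higher and 1 lower of 5). Among coding members alone the medians were -0.10 for the maternal and 0.25 for the paternal class. With the length offset the counts of higher and lower calls were 1 and 2 for noncoding and 4 and 8 for coding members. They were 1 and 3 for maternal, 3 and 5 for paternal and 1 and 2 for mixed members, so that more were lower than higher in each class. With the pool block too, the paternal class had 6 higher and 6 lower, and the other classes still had more lower than higher. These are descriptions of chosen genes, and no test was made between the classes. Leaving out 1 library moved the coding median between -0.08 (without the IP of young pool 1) and 0.12 (without the IP of young pool 2), and it was below 0 without any of 6 libraries. The maternal median moved between 0.03 (without the IP of adult pool 2) and 0.35, and the paternal median between 0.26 (without the IP of adult pool 1) and 0.46.

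The members differ in transcript length from 216 to 93092 bases. The longest is Kcnq1ot1, followed by Meg3 at 14548 bases, so the offset of Kcnq1ot1 depends on its annotated length. Those of Meg3, Rian and Ube3a depend on the transcript chosen, of 14548, 8089 and 9856 bases out of 18089, 18234 and 20626 exonic bases. With the length offset Peg3 (1.32, SE 0.13), Zim1 (2.26, SE 0.54), Peg13 (1.45, SE 0.15), Mest (1.61, SE 0.22) and Igf2r (1.02, SE 0.31) were still called higher, with edgeR adjusted p from 0.000149 to 0.0397. With the pool block added, Igf2r missed the threshold (0.96, adjusted p = 0.0918). The direction turned for Kcnq1ot1, which was called lower (-0.81, SE 0.16, adjusted p = 0.00528), and for Rian (-0.04, adjusted p = 0.859) and Usp29 (-0.14, adjusted p = 0.578), which were not called. Meg3 (-0.83, SE 0.21, adjusted p = 0.019), Ube3a (-0.61, SE 0.10, adjusted p = 0.00256), Ndn (-0.39, SE 0.11, adjusted p = 0.0282) and Inpp5f (-0.54, SE 0.15, adjusted p = 0.0241) became called as lower. Magel2 (0.78, adjusted p = 0.0818), Rasgrf1 (0.47, adjusted p = 0.11) and Trappc9 (0.34, adjusted p = 0.0576) were no longer called. With both the offset and the pool block, Magel2 (0.77, adjusted p = 0.03) and Rasgrf1 (0.47, adjusted p = 0.0103) passed again, and Zrsr1 passed as well (0.47, adjusted p = 0.0216).

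With the length offset 5 members were higher and 10 lower, where 21.1% of all genes were called, and the median moved from 0.25 to -0.04 (0.01 over all genes). With the pool block too it was 7 higher and 11 lower. The split between higher and lower members thus changed with the scaling, as the plot of both estimates shows. The 5 genes called lower as counted (Commd1, Nnat, Nap1l5, Impact and Gnas) were also called lower with the offset. The noncoding median was 0.39 and the coding median -0.14 with the offset, and the maternal and paternal medians were -0.09 and 0.05.

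**Figure D2:**
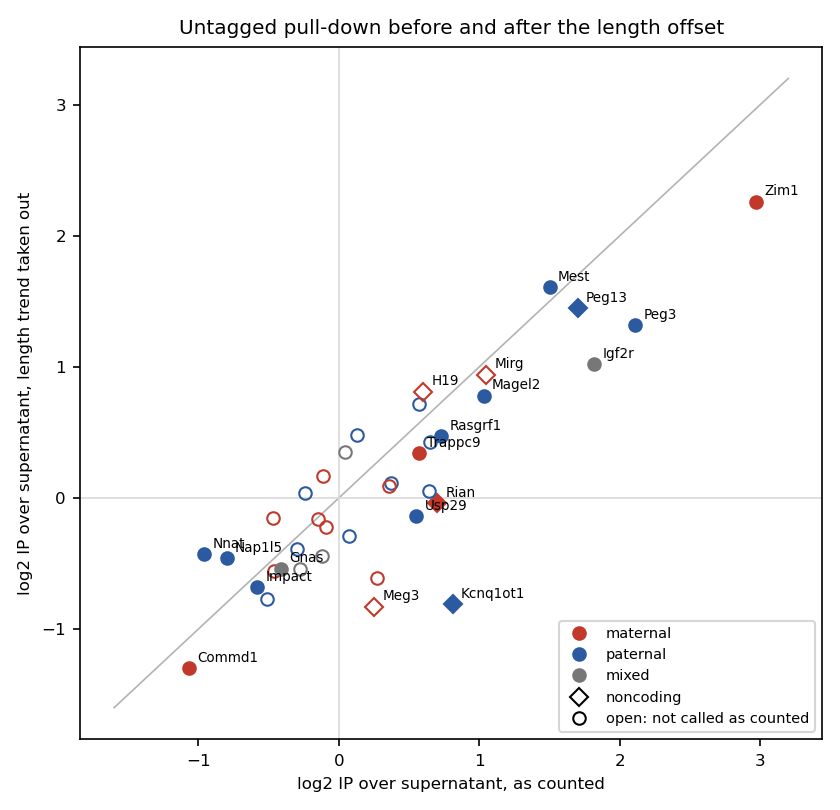
Log2 difference of IP from supernatant in the untagged pools as counted (x axis) and with the length trend taken out (y axis), 1 point per tested member except Dio3, which lay far outside the axes. Colour gives the parental class, diamonds are noncoding members, filled symbols were called as counted, and the diagonal marks equal values. Kcnq1ot1, at an annotated length of 93092 bases, falls from 0.81 to -0.81, while Mest stays at 1.5 and 1.61.

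Both ages were also tested apart. At day 21, 15 of 39 members were called, 9 higher and 6 lower, where 27.1% of all genes were called, 13% higher and 14.1% lower. In adults 9 were called, 7 higher and 2 lower, where 10.9% of all genes were, 6.39% higher and 4.49% lower. With the length offset the day 21 calls were 3 higher and 8 lower (16.1% of all genes called) and the adult calls 3 higher and 2 lower (5.59%), and with the pool block too they were 5 and 12 (14.8%) and 3 and 7 (5.48%). The balance of higher and lower members at day 21 thus turned over with the offset. Counted by separation, 15 members had every IP above every supernatant at day 21 and 4 every IP below, where 20.9% and 21.6% of all genes did. In adults, with 2 libraries a side, these were 15 and 7 members, where 27.7% and 30.3% of all genes did. Members called at both ages numbered 6 among the higher (Zim1, Peg3, Igf2r, Peg13, Mest and Rian) and 2 among the lower (Commd1 and Nap1l5). With the length offset Peg3, Peg13 and Mest remained called higher and Commd1 lower at both ages, and Ube3a was called lower at both. Zim1 (2.02 at day 21 and 2.50 in adults, edgeR adjusted p = 0.068 and 0.124), Igf2r (0.66 and 1.39, adjusted p = 0.302 and 0.139) and Rian (-0.32 and 0.24, adjusted p = 0.172 and 0.537) were then called at neither age, and Nap1l5 was not called in adults (-0.46, adjusted p = 0.113). The Peg3 difference was 2.27 (SE 0.16, edgeR adjusted p = 1.82e-05) at day 21 and 1.94 (SE 0.19, adjusted p = 0.000363) in adults. Ndn was called lower at day 21 (-0.47, SE 0.15, edgeR adjusted p = 0.0397) and showed -0.13 (SE 0.18, adjusted p = 0.737) in adults.

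The count at day 21 was 9 without the supernatant of young pool 1 and 8 without that of young pool 2. The adult count was 2 without the supernatant of adult pool 1, 3 without that of adult pool 2 and 3 without the IP of adult pool 1. With the pool as a block at day 21, Rian (0.45, edgeR adjusted p = 0.057), Trappc9 (0.48, adjusted p = 0.0507) and Igf2r (1.40, adjusted p = 0.051) were not called, while Usp29 (0.53, adjusted p = 0.00998), Ube3a, Kcnq1ot1, Igf2 and Zrsr1 were. In adults the block added Usp29, Nnat, Gnas and Rasgrf1. No member's ratio differed between the ages by the interaction test (0 of 39 called by edgeR, and 0% of all genes). At an unadjusted p under 0.05, 1 member (Dio3) and 1068 of all genes passed, and over all genes limma voom called 0 and DESeq2 called 151.

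Cell-type markers also differed between the fractions, where 15.8% of all genes were higher and 16.2% lower. Immature neuron genes had 5 higher and 2 lower of 9 tested. Their summed levels were 1506 to 1649 CPM in the IPs and 2149 to 2944 CPM in the supernatants. Stmn1 and Marcksl1 made up most of these sums, with 1780 and 890 of 2944 CPM in the supernatant of young pool 1. Pan-neuronal genes had 3 higher and 2 lower of 11, summing to 8223 to 12070 CPM and 7173 to 8377 CPM. By edgeR none of the 10 endothelial or 14 fibroblast and meningeal genes was called, and 1 of each list passed an unadjusted p of 0.05. Mature oligodendrocyte genes had 0 higher and 2 lower of 12, astrocyte genes 2 higher and 1 lower of 12, and microglial genes 0 higher and 3 lower of 12. The 10 choroid plexus markers summed to 82.5 to 100.3 CPM in the IPs and 54.3 to 75.0 CPM in the supernatants. Among them Prlr read 38.4 to 66.2 CPM in the IPs and 8.46 to 23.1 CPM in the supernatants. Clic6 overlapped, at 7.20 to 43.5 CPM and 19.4 to 34.6 CPM. The part of these genes in the members' differences was not tested.

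The GFP-positive pool adds ribosomes of GnRH neurons to whatever the untagged pull-down holds. It has no replicate, so its values are given without a test. In this pool 7 of 39 members were at least 2-fold higher in the IP than in its own supernatant, where 11.3% of all genes were, and 3 were at least 2-fold lower, where 14.1% were. Of those 7, 6 (Peg3, Zim1, Igf2r, Mest, Magel2 and Mirg) had ratios within the range of the untagged pools. Peg3 read 1160 CPM against 275 CPM, a ratio of 4.22, and its untagged IPs spanned 984 to 1510 CPM.

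The seventh, Plagl1, did not. This paternally expressed zinc-finger regulator of growth genes read 35.8 CPM in the GFP-positive IP and 15.8 CPM in its supernatant (2.26-fold), while the untagged IPs read 8.70 to 19.6 CPM. Ndn read 1470 CPM in that IP and 1060 CPM in the supernatant, where the untagged IPs read 732 to 1290 CPM and stayed below their own supernatants. Gnas read 3500 CPM in the IP, above the 2340 to 2820 CPM of the untagged IPs, and Impact read 874 CPM, above their 427 to 736 CPM.

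In all, 10 members (Usp29, Ndn, Cdkn1c, Plagl1, Gnas, Nap1l5, Herc3, Commd1, Copg2 and Impact) had a GFP-positive ratio above all 5 untagged pools, where 16.9% of all genes did. Another 7 (Peg13, Kcnq1ot1, Igf2, Nnat, Blcap, Zrsr1 and Inpp5f) lay below all 5, where 17% of all genes did. Peg13 reached 339 CPM in the GFP-positive IP and 417 to 696 CPM in the untagged IPs. Nnat read 559 CPM in the IP and 1360 CPM in the supernatant. Of the 5 tested members of the Snrpn to Ube3a domain, Ndn was the one outside the untagged range.

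Age was compared in the supernatants, with 5 pools at each age read in set 2 and the origin of the pool (new or prior) as a term. Among the new pools age and genotype cannot be told apart, while the prior pools share 1 genotype. Mkrn3 was 3.79-fold lower in adults, and Ndn and Nap1l5 were 1.34-fold and 1.33-fold lower. Sgce and Peg13 were 1.47-fold and 1.29-fold higher, and H19 fell close to the detection floor. Of 39 members 6 were called by edgeR (15.4%), 2 higher and 4 lower, where 9.42% of all genes were, 4.2% higher and 5.22% lower. The members' median was -0.04, against 0.01 over all genes.

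Mkrn3 read 6.08, 9.62 and 9.87 CPM in the young untagged pools and 15.8 and 8.39 CPM in the young prior pools. In adults it read 2.19 and 4.40 CPM in the untagged pools, 2.62 CPM in the GFP-positive pool and 1.35 and 2.65 CPM in the prior pools. Every adult pool was below every young pool, and the log2 difference was -1.92 (SE 0.31, edgeR adjusted p = 0.0024). It was -1.47 (SE 0.32, adjusted p = 0.0392) among the new pools alone and -2.60 (SE 0.43, adjusted p = 0.125) among the 4 prior pools alone. Among the untagged pools alone it was -1.37 (adjusted p = 0.114). The set 1 libraries of the prior pools gave 16.2 and 10.4 CPM at day 21 and 2.15 and 2.02 CPM in adults. Mkrn3 was the only member of 39 with all adult pools below all young pools, where 3.65% of all genes showed this.

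Its neighbours in the domain had smaller differences. Ndn read 1330, 1290, 1530, 2220 and 2540 CPM in the young pools and 834, 849, 1060, 1990 and 2240 CPM in the adult pools (untagged, then GFP-positive, then prior). Young and adult values overlapped because the prior pools were higher than the new ones at both ages. The difference of -0.43 (SE 0.10, edgeR adjusted p = 0.019) was not called without the origin term (-0.36, adjusted p = 0.55), in the prior pools alone (-0.17, adjusted p = 0.601) or without adult untagged pool 1 (-0.37, adjusted p = 0.0649). Ndn was called in the new pools alone (-0.58, SE 0.12, edgeR adjusted p = 0.0336), where age and genotype cannot be told apart. Snrpn showed -0.38 (SE 0.16, adjusted p = 0.144), and Magel2 read 10.4 to 27.3 CPM in young and 14.6 to 26.3 CPM in adult pools.

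Nap1l5 read 4560, 4070, 3130, 3950 and 4120 CPM in the young pools and 2910, 2930, 3040, 2820 and 3260 CPM in the adult pools (-0.41, SE 0.08, edgeR adjusted p = 0.0104). Only young untagged pool 3 lay within the adult range. In the new pools alone the value was -0.39 (adjusted p = 0.109) and in the prior pools alone -0.41 (adjusted p = 0.27). Its host Herc3 read 60.1 to 107 CPM and 57.7 to 89.8 CPM at the same ages and was not called.

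Sgce, an epsilon-sarcoglycan whose loss causes myoclonus-dystonia, read 12.1, 14.3, 11.6, 12 and 17.4 CPM in the young and 17.3, 22.2, 20.4, 21.0 and 17.9 CPM in the adult pools. The ages overlapped only at young prior pool 2 and adult untagged pool 1. The difference was 0.56 (SE 0.13, edgeR adjusted p = 0.0191), and 0.53 (adjusted p = 0.0503) without the GFP-positive pool. Peg13 read 157, 138, 136, 195 and 254 CPM and then 181, 155, 179, 333 and 313 CPM (0.36, SE 0.09, edgeR adjusted p = 0.0205).

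Peg13 just missed the threshold without young untagged pool 2, the GFP-positive pool, adult untagged pool 1, adult prior pool 3 or adult prior pool 4 (0.33 to 0.36, adjusted p from 0.0503 to 0.061). It was not called in the new pools alone (0.28, adjusted p = 0.157), in the prior pools alone (0.52, adjusted p = 0.287) or without the origin term (0.39, adjusted p = 0.384). Sgce was not called in the new (0.67, adjusted p = 0.0508) or prior (0.40, adjusted p = 0.543) pools alone. Blcap was the only member with every adult pool above every young pool, where 2.61% of all genes showed this, but its difference of 0.23 (SE 0.09) was not called (adjusted p = 0.131).

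H19 read 0.255, 0.804, 1.19, 0.738 and 0 CPM in the young pools and 0.0394, 0.121, 0, 0 and 0.0311 CPM in the adult pools, which is 105 counts over the young and 7 over the adult libraries. The fitted difference of -3.89 (SE 0.98, edgeR adjusted p = 0.0257) rests on these few reads. By limma voom it was -3.22 (adjusted p = 0.0758). It was not called without the GFP-positive pool (-3.59, adjusted p = 0.0597), adult untagged pool 1 (-3.77, adjusted p = 0.0794), young prior pool 1 (-3.27, adjusted p = 0.0711), adult prior pool 3 (-3.66, adjusted p = 0.0653) or adult prior pool 4 (-4.00, adjusted p = 0.054). The young prior pool 1 RNA that gave 0.738 CPM in set 2 gave 0.025 CPM in set 1. The plot of the 6 genes by age shows each pool.

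**Figure D3:**
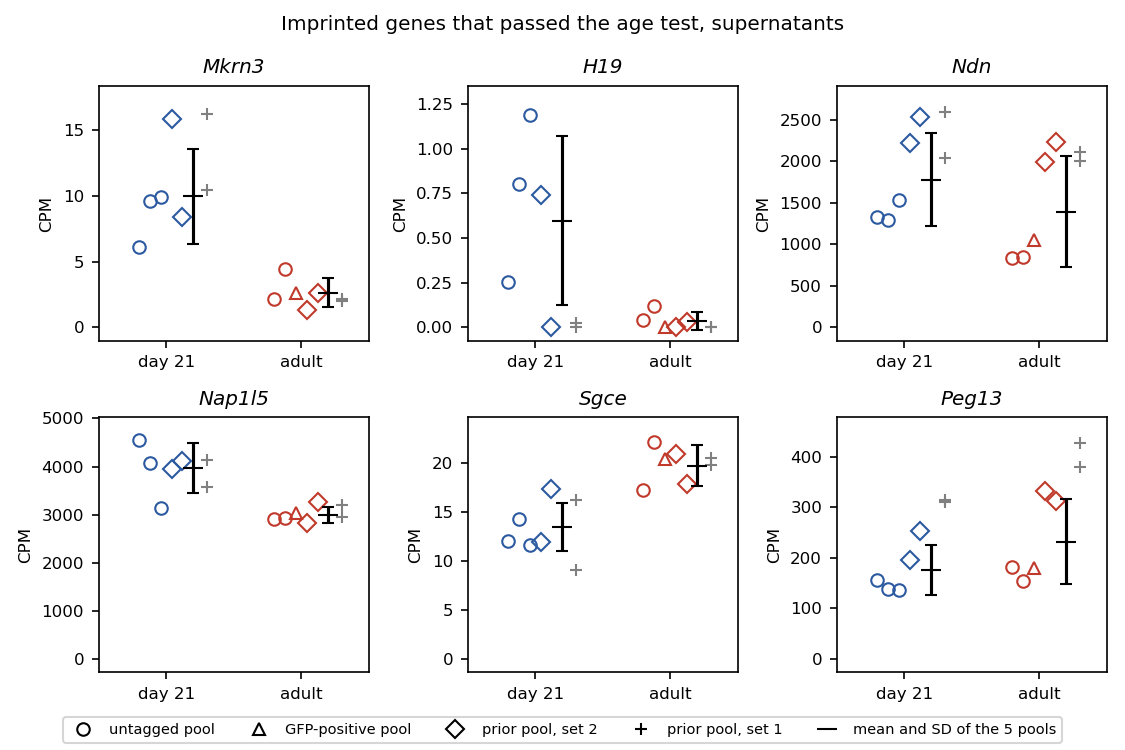
Supernatant CPM of the 6 members called with age, day 21 in blue and adult in red, with each y axis starting just below 0. Open symbols are the 5 pools per age read in set 2, grey plus signs the set 1 libraries of the prior pools, and bars the mean and SD of the 5 pools. Mkrn3 lies at 6.08 to 15.8 CPM at day 21 and at 1.35 to 4.40 CPM in adults.

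The other noncoding members did not pass the age test. Meg3 read 321, 206, 144, 419 and 544 CPM in the young and 132, 247, 129, 863 and 478 CPM in the adult pools, with the prior pools above the new ones at both ages. Rian read 105, 119, 113, 91.9 and 112 CPM and then 75.0, 99.1, 103, 129 and 83.5 CPM. Kcnq1ot1 ran from 21.0 to 36.6 CPM and from 20.9 to 70.6 CPM, and Mirg from 1.07 to 1.60 CPM and from 0.727 to 1.18 CPM.

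The class medians of the age difference were -0.10 for noncoding, -0.03 for coding, -0.04 for maternal, -0.00 for paternal and -0.25 for mixed members. Of the paternal class 2 of 20 tested were higher and 3 lower, and of the maternal class 0 were higher and 1 lower of 14. The count of 6 called members fell to 3 without the GFP-positive pool and to 3 without adult untagged pool 1.

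Cell-type markers also moved with age, where 4.2% of all genes were higher and 5.22% lower. Immature neuron genes had 0 higher and 5 lower of 9 tested, with summed levels of 2368 to 2944 CPM in young and 1885 to 2339 CPM in adult supernatants. Microglial genes had 4 higher and 0 lower of 12, summing to 66.5 to 124.9 CPM and 81.0 to 163.4 CPM. Mature oligodendrocyte genes had 1 higher and 3 lower of 12, summing to 4672 to 7153 CPM and 2796 to 6016 CPM. Preoptic neuron genes had 4 higher and 0 lower of 16, summing to 1423 to 2026 CPM and 1638 to 2364 CPM. The part of these shifts in the members' age differences was not tested, and in pooled tissue fewer cells of a type and less RNA per cell cannot be told apart.

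Some members varied between pools of the same age far more than between repeat readings of the same RNA, once the shift shared by all repeated pools was left out. Of these, Zrsr1, Igf2 and Cdkn1c are described pool by pool. The supernatants of Zrsr1 read 25.8, 19.9 and 126 CPM in young untagged pools 1 to 3, 24.9 and 47.8 CPM in adult untagged pools 1 and 2, 46.3 CPM in the GFP-positive pool, 89.4 and 20.2 CPM in young prior pools 1 and 2, and 85.5 and 22.0 CPM in adult prior pools 3 and 4. The high pools were high again wherever the same pool was read a second time.

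The set 1 libraries of the prior pools gave Zrsr1 at 75.1, 15.1, 75.2 and 14.4 CPM in the same order. The IP of young untagged pool 3 gave 220 CPM, where the other IPs gave 35.9 to 70.3 CPM. Within age, the SD of log2 CPM between pools was 1.06 for Zrsr1, and the SD between the sets of the prior pools was 0.13. The medians over 14085 genes were 0.23 and 0.12. The SD between sets leaves out the shift shared by the prior pools, which was 0.34 for Zrsr1, 0.75 for Igf2 and 0.46 for Meg3. The SD between pools includes any difference between new and prior pools. Only 190 genes had a larger SD between pools. Commd1, within whose span Zrsr1 lies on the opposite strand, had an SD between pools of 0.20.

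Igf2 had the largest spread of the members between pools (SD 1.51 log2, with 59 of 14085 genes above it and 0.12 between sets). It read 87.0, 149, 332, 105 and 15.6 CPM in young and 78.4, 182, 107, 32.6 and 16.3 CPM in adult pools. Igf2 is known to be made in adult brain mainly by the meninges and choroid plexus. The summed level of 13 fibroblast and meningeal genes (Ptgds left out) was 83.0, 190, 430, 152 and 23.5 CPM in the same young pools and 248, 435, 254, 116 and 42.7 CPM in the adult pools. At each age the pool with the lowest and the pool with the highest Igf2 had the lowest and the highest summed level. The 10 choroid plexus markers summed to 54.3 to 66.0 CPM in the young and 73.5 to 84.8 CPM in the adult pools. Clic6 and Prlr made up most of this, while Ttr, the defining transcript of that epithelium, read at most 5.67 CPM and Folr1 at most 0.243 CPM in any library. The part of meningeal or choroid plexus tissue in the Igf2 values was not tested.

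**Figure D4:**
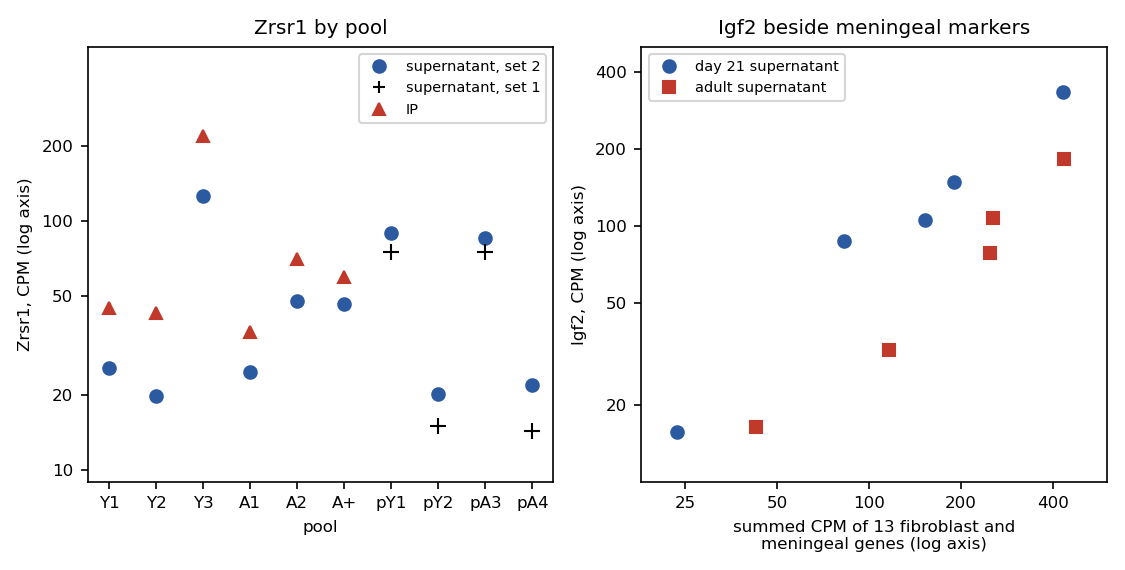
Left, Zrsr1 CPM by pool on a log axis (Y and A, young and adult untagged pools; A+, the GFP-positive pool; pY and pA, prior pools), with circles for set 2 supernatants, plus signs for set 1 and triangles for IPs. Right, Igf2 CPM against the summed CPM of 13 fibroblast and meningeal genes in the 10 supernatant pools, both on log axes. Young pool 3 has the highest Zrsr1 (126 CPM in the supernatant, 220 CPM in the IP) and the highest Igf2 (332 CPM).

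Cdkn1c, a maternally expressed cell-cycle inhibitor, had an SD of 0.81, with 7.10 CPM in adult prior pool 4 and 41.9 CPM in adult untagged pool 2. These were the adult pools with the lowest (42.7 CPM) and the highest (435 CPM) summed meningeal level. Among young pools the extremes of Cdkn1c, 13.1 CPM in prior pool 2 and 39.6 CPM in untagged pool 3, again fell on the lowest and highest summed level, and the part of meningeal tissue was not tested. Calcr, the calcitonin receptor gene that marks a preoptic cell group active in maternal care, had an SD of 0.80, Meg3 of 1.01 (0.07 between sets) and Zim1 of 0.94. At the other end, Gnas had an SD of 0.11, Nap1l5 of 0.15 and Blcap of 0.16. Gnas and Nap1l5 are among the most abundant members, while Ndn, also abundant, had an SD of 0.58.

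The repeat of 4 pools in both sequencing sets shows how far the members move with no change in RNA. Rian was 1.93-fold, Mest 1.79-fold, Kcnq1ot1 1.71-fold, Igf2 1.68-fold, Peg10 1.57-fold and Peg3 1.52-fold higher in set 2. Magel2 was 1.48-fold, Rasgrf1 and Cdkn1c 1.37-fold and Peg13 1.33-fold lower. Of 38 members tested 22 were called by edgeR with the pool as a block (57.9%), 14 higher and 8 lower, where 31.1% of all genes were, 15% higher and 16.1% lower. The median was 0.06, and 0.00 over all genes.

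Rian read 57.0, 55.8, 54.3 and 44.4 CPM in set 1 and 91.9, 112, 129 and 83.5 CPM in set 2 (log2 difference 0.95, SE 0.08, edgeR adjusted p = 5.83e-07). Every set 2 value was above every set 1 value. Mest read 24.2, 25.1, 31.0 and 21.4 CPM and then 44.5, 49.5, 46.8 and 42.2 CPM (0.84, SE 0.08, adjusted p = 2.42e-06), also without overlap. Peg3 read 256, 248, 260 and 279 CPM and then 341, 458, 414 and 399 CPM (0.61, SE 0.06, adjusted p = 3.04e-06). Magel2 went the other way, from 29.0, 36.2, 38.4 and 28.0 CPM to 16.4, 27.3, 26.3 and 20.5 CPM (-0.57, SE 0.09, adjusted p = 0.000176).

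The set difference of Peg13 was as large as its age difference. Peg13, called higher with age by 0.36, differed between sets by -0.42 (SE 0.06, edgeR adjusted p = 0.000149), and the age comparison used set 2 alone. With the set 1 libraries in place of set 2 for the prior pools, Peg13 showed 0.30 with age (adjusted p = 0.0173), Mkrn3 -1.95 (adjusted p = 0.00127) and Ndn -0.43 (adjusted p = 0.0214). By separation, 6 of 38 members had every set 2 library above every set 1 library, where 9.31% of all genes did, and 2 (Magel2 and Trappc9) had every one below, where 6.4% did.

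**Figure D5:**
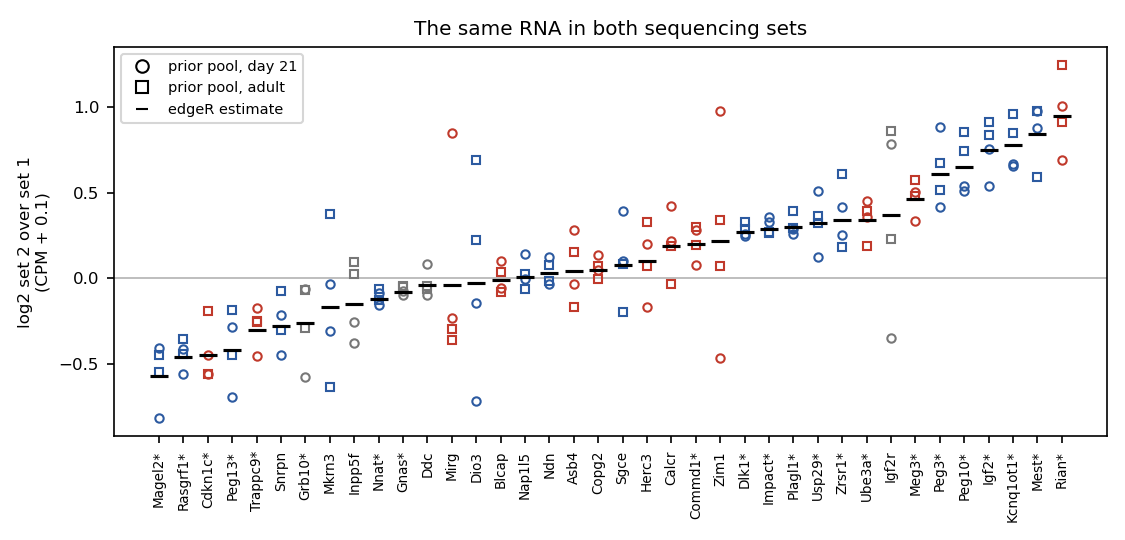
Log2 ratio of set 2 to set 1 (CPM + 0.1) for the 38 tested members, 1 open symbol per prior pool (circles day 21, squares adult), with the edgeR estimate as a bar asterisks for members past an adjusted p of 0.05 and red, blue and grey for maternal, paternal and mixed members. Rian, Mest and Kcnq1ot1 stand at 0.95, 0.84 and 0.78, and Magel2 at -0.57.

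Other imprinted genes and the machinery that sets, keeps or erases imprints were followed as lists. Among 36 tested imprinted genes outside the 41, 5 were higher (13.9%) and 4 lower (11.1%) in the untagged IP (median 0.12). These shares were below the 15.8% and 16.2% of all genes. The largest differences were those of Klf14 (-5.76, SE 1.52, edgeR adjusted p = 0.0173, at means of only 0.0235 CPM in the IPs and 0.636 CPM in the supernatants), Zdbf2 (1.10, SE 0.12, adjusted p = 0.000129) and Sfmbt2 (0.97, SE 0.30, adjusted p = 0.0302). With the length offset 2 were higher and 2 lower, and Zdbf2 (0.09, adjusted p = 0.64) and Sfmbt2 (0.25, adjusted p = 0.631) were not called. With age 3 were higher (8.33%, against 4.2% of all genes) and 2 lower (5.56%, against 5.22%), and the leading genes were Peg12 (-2.31, SE 0.50, adjusted p = 0.0125), Pon2 (0.60, SE 0.17, adjusted p = 0.0443) and Gatm (0.57, SE 0.14, adjusted p = 0.0231). Peg12, a neighbour of Mkrn3, Magel2 and Ndn in the same domain, read 1.04 ± 0.591 CPM in young and 0.210 ± 0.11 CPM in adult pools (SD, n = 5 each). Between sets 5 were higher (13.9%) and 8 lower (22.2%), where 15% and 16.1% of all genes were, led by Zdbf2 (0.87), Rtl1 (0.79) and Begain (-0.53).

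Of 24 tested factors that set, maintain or erase imprints, 13 were higher (54.2%, against 15.8% of all genes) and 1 lower in the untagged IP (median 0.73). With the length offset 8 were higher and 2 lower (median 0.29). The 5-methylcytosine oxidases Tet1, Tet2 and Tet3 were counted among these factors. The largest differences were Dnmt3l, with no read in any of the 5 IPs and 0.463 ± 0.355 CPM (SD, n = 5) in the supernatants, the de novo methyltransferase Dnmt3b (3.22, SE 0.58, edgeR adjusted p = 0.0019) and the 5-methylcytosine oxidase Tet3 (3.12, SE 0.18, adjusted p = 2.03e-06). Tet3 read 261 ± 36.2 CPM in the IPs and 29.9 ± 5.85 CPM in the supernatants (SD, n = 5 each). With age 3 were lower and none higher by edgeR, Uhrf1 (-1.53, SE 0.45, adjusted p = 0.047), Tet1 (-0.96, SE 0.13, adjusted p = 0.000842) and Dnmt3a (-0.77, SE 0.10, adjusted p = 0.00068). Dnmt3a, which methylates DNA de novo, read 116 ± 11.3 CPM in young and 68.3 ± 8.84 CPM in adult pools (SD, n = 5 each). Between sets 8 were higher and 2 lower, led by Tet3 (1.01), Tet1 (0.81) and Tet2 (0.81), so these factors also moved between readings of the same RNA.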

How the data were processed

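The authors deposited whole-number read counts per gene symbol with no normalisation. Named in the submitters' processing notes are FastQC 0.11.3, TopHat2 2.0.13, Bowtie2 2.2.1, HTSeq 0.6.1 and DESeq2 1.14.1, and build mm10. The strand setting and the treatment of reads shared by overlapping genes are not given in the sources used here. A SMARTer v4 kit amplified the polyA RNA, per the labels' protocols. PCR copies were not told apart, so floors cover counting error only. Groups follow the sample titles; the series text names the GFP-positive supernatant in conflicting ways, and descriptions of the adult untagged supernatants give other replicate numbers than the titles that were used for pairing.

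Counts were tested with edgeR 4.0.16 in R 4.3.3 (quasi-likelihood, trimmed-mean scaling, filterByExpr with a minimum count of 10, Benjamini-Hochberg adjustment over all genes tested, threshold 0.05). The 10 untagged libraries shared 1 fit (6 residual degrees of freedom); age used 10 supernatants with an origin term (7), and sets used 8 libraries with the pool as a block (3). Alternatives were other size factors, no filter, limma 3.58.1 voom, DESeq2 1.42.0, a length offset (a smooth trend of log counts on transcript length in each library), the pool block, subsets of pools and leaving out each library. In the untagged and age fits p-values measure the spread between pools, taken to hold separate mice. In the set fit, which has the pool as a block, they measure the spread between readings of the same RNA. The main untagged fit left the fractions of a pool unpaired. Both fractions of a pool share its number in the labels, and the deviations of the 5 pairs from their group means correlated at 0.102 to 0.284 across 16361 genes, so the block pairs them.

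The members and lists were chosen with earlier results of these data known. Values in every library were given for members called in the untagged or age comparison and for the noncoding members; of each list, the 3 called genes with the largest difference were named. Some further members were named after their values were seen. Coordinates and lengths came from GENCODE M21 on GRCm38 (mm10), which matched 98.4% of symbols; promoters and miRNAs came from RefSeq on GRCm38.p6. The fits were tested on simulated data.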

Additional observations from a re-analysis of the deposited data

Results flagged for a closer look

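In 78 tests of the highest and lowest pool within an age (5 supernatant pools each), 3 members had a pool far from the others. As chance flags about 1 group in 20, this number is no more than chance would give. Calcr read 25.8 CPM in young prior pool 2, where the other young pools read 3.45 to 8.88 CPM, and the same RNA gave 19.2 CPM in set 1. Kcnq1ot1 read 70.6 CPM in adult prior pool 3, where the other adult pools read 20.9 to 31.1 CPM. Meg3 was also highest there, at 863 CPM, and in set 1 the same RNA gave 36.3 CPM of Kcnq1ot1 and 579 CPM of Meg3. Mest read 29.5 CPM in young untagged pool 3, where the other young pools read 44.5 to 49.8 CPM, and its IP of 98.8 CPM was the lowest of the young untagged IPs.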

How the results depend on the processing

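Scaling by DESeq2 size factors, no filter on low counts, limma voom and DESeq2 left the counts of called members within 1.5 times in each comparison. In the untagged comparison the length offset turned Rian (-0.04), Usp29 (-0.14) and Kcnq1ot1 (-0.81). With the replicate block too they stood at -0.04, -0.14 and -0.82. The Kcnq1ot1 values depend on its annotated length of 93092 bases, and those of Rian on the chosen transcript of 8089 bases. The adult count was 5 with the length offset. Class medians with the offset were 0.39 (noncoding), -0.14 (coding), -0.09 (maternal), 0.05 (paternal) and -0.44 (mixed). Without the offset, counting mixed members as maternal gave a maternal median of 0.04, and counting them as paternal gave a paternal median of 0.13. The age count was 3 without the origin term, 2 in new pools, 0 in prior pools and 1 in untagged pools. The set count was 10 without the replicate block. Over all genes, counts that moved by more than 1.5 times were 3444 with the length offset and 3205 with block and offset in the untagged comparison (5246 as fitted), 2636 and 2419 likewise at day 21 (4428), 915 and 897 likewise and 3091 by DESeq2 in adults (1779), 2276 by DESeq2, 655 without the origin term, 481 in new, 11 in prior and 256 in untagged pools with age (1502), and 2262 without the block between sets (5008). The median of all genes in the untagged comparison was -0.03 by edgeR and -0.19 by limma voom. H19 was too low to test in new or prior pools alone, without the origin term, or with set 1 libraries for the prior pools.

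Leaving out 1 library at a time gave 13 to 18 called members in the untagged comparison, 8 to 14 at day 21, 2 to 12 in adults, 0 to 0 for age by fraction, 3 to 8 with age and 18 to 24 between sets. Over all genes the counts then ran from 3571 to 5725, 2842 to 4856, 285 to 2398, 0 to 67, 723 to 1706 and 3651 to 4856. Class medians then ran from 0.62 to 0.97 (noncoding), -0.08 to 0.12 (coding), 0.03 to 0.35 (maternal), 0.26 to 0.46 (paternal) and -0.28 to -0.05 (mixed) in the untagged comparison, and from -0.27 to 0.02, -0.08 to 0.01, -0.09 to 0.00, -0.05 to 0.07 and -0.25 to -0.16 with age. In the untagged comparison, blocking on the replicate number pairs the fractions of a pool, and it gave 20 called members in place of 16. With age, where only supernatants entered, the block tied young and adult untagged pools of the same number. Those pools are not pairs, and the count was 6 as without the block. Beyond the calls named above the block changed none. Apart from the fewer libraries in some fits, the cause of these shifts was not tested. At this depth Phlda2 was not measurable, and H19 in adults lay near the floor. Snurf shares all its exonic bases with Snrpn and could not be measured apart from it.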
